A study of Zea mays with 9 samples.

Results

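A set of 118 maize genes, of 30184 in the deposited table, was lower in second leaves than in the weed-free control when the ratio of red to far-red light (R:FR) was low, whether weeds or lamps lowered it. The members were chosen on measured values. A gene was taken when its normalized count averaged at least 20 over all 9 libraries and less than 20000 in the control, when the highest of its 6 treated values lay below its lowest control value, and when log2 of the group mean plus 1 over the control mean plus 1 was at or under -0.8 for each treatment. Of the genes within the level limits (20939), 1010 (4.82%) had no overlap with the control, and 119 met every condition. The aquaporin gene tip4a (LOC541897) met the conditions and was left out by name. Because both comparisons with the control chose the members, their values against the control are a description and carry no test here.

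Plants sense neighbours before they are shaded, because leaves absorb red light and reflect far-red light. Phytochromes, the red and far-red receptors of plants, are inactivated by far-red light, which releases PIF transcription factors and starts the shade avoidance programme of stem and leaf elongation. Auxin, gibberellin and brassinosteroid are the hormones best known for carrying this programme out.

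All plants were seedlings of the hybrid CG108 x CG102, grown for 9 days in growth chambers at the same incoming light intensity. Biological low R:FR plants were surrounded by a grass used as a surrogate weed whose roots were kept apart from theirs, artificial low R:FR plants received added far-red light from lamps, and weed-free control plants received neither. The labels give an R:FR of 0.6 for both treatments and 1.5 for the control, whereas the study's text states a clearly higher ratio for the control and a slightly lower one for both treatments. There were 3 RNA-seq libraries per group, each made from the second leaves of 3 pooled plants. Only 1 genotype and 1 age were sampled, and in such bulk tissue fewer cells of a type and less RNA per cell cannot be told apart. The leaf genes pep1 (LOC542372), pdk1 (LOC542759) and ME1 (LOC542233), which encode enzymes of C4 carbon fixation, lay between 3240 and 14787 TPM (transcript level per length and depth) in every library, other genes that share the names pep1 and pdk1 lay between 2.87 and 13.4 TPM, and the meristem gene kn1 was at or below 0.121 TPM.

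The recovered read totals of the libraries ran from 23372555 to 40283408 under biological low R:FR, from 29642168 to 36995731 under artificial low R:FR and from 22775151 to 33132805 in the control. The totals of the libraries labelled artificial match the study's own listing of reads for the control, and those labelled control match its listing for the artificial treatment, whereas the biological totals match their own. The TPM files and the normalized table carry the same labels in all 9 libraries. Groups are named here by the deposited labels. With these labels exchanged, the members would be genes higher under artificial low R:FR than in both other groups, so every direction below rests on the labels. Biological replicate 3 stood apart from the other libraries, with 897 genes at least 4-fold below the rest against 16 to 120 in each other library.

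Across the 118 genes, levels under artificial low R:FR had a median of 38.5% of the control mean and ran from 9.75% to 56.8%. Levels under biological low R:FR had a median of 47.2% of the control mean and ran from 10.2% to 57.0%. Both log2 folds were at or under -1 in 65 genes, at or under -1.5 in 27 and at or under -2 in 3. Those at or under -2 in both were LOC100273437, LOC100280101 and LOC100281433. The separation from the control was often narrow. The lowest control value was a median of 1.27 times the highest treated value, it was under 1.1 times in 23 genes, and it reached 2 times in 5.

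**Figure D1:**
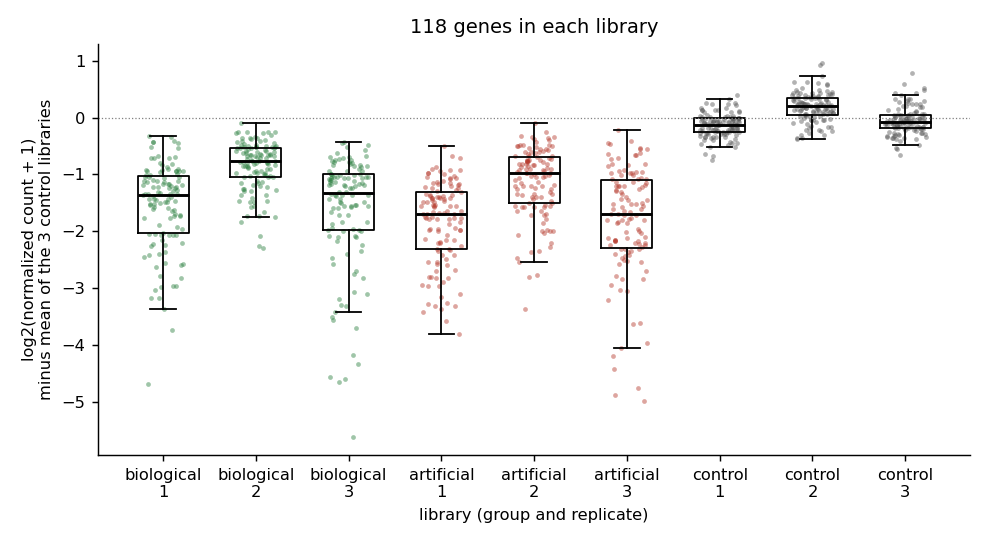
Each point is one of the 118 genes in one library (x axis: group and replicate), placed by log2(normalized count + 1) minus the gene's mean over the 3 control libraries (y axis). Boxes show the median and quartiles and whiskers reach at most 1.5 box heights. The medians were -1.36, -0.77 and -1.33 in biological replicates 1, 2 and 3, and -1.69, -0.98 and -1.70 in artificial replicates 1, 2 and 3, against -0.13, 0.20 and -0.08 in control replicates 1, 2 and 3.

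The deepest member was LOC100273437, a protein-coding gene on the minus strand of chromosome 9 (133597318 to 133599200, Zm-B73-REFERENCE-NAM-5.0). Its normalized counts were 6.32, 14.5 and 4.85 under biological low R:FR and 6.82, 14.0 and 3.83 under artificial low R:FR, against 46.6, 143 and 62.5 in the control. Its lowest control value was 3.20 times its highest treated value, the widest gap in the set. In each group replicate 2 was the highest library, at 2.60, 2.62 and 2.62 times the mean of the other 2 libraries under biological low R:FR, under artificial low R:FR and in the control. LOC100280101 (chromosome 3, 115530917 to 115534746) followed with 96.1, 242 and 95.3 under biological low R:FR and 75.9, 171 and 94.2 under artificial low R:FR, against 633, 951 and 527 in the control. LOC100281433 (chromosome 4, 145827887 to 145830889) had 21.5, 35.3 and 12.9 under biological low R:FR and 17.5, 23.9 and 19.9 under artificial low R:FR, against 86.8, 157 and 124 in the control. In these 3 genes both treatments lay at a similar depth below the control.

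Other deep members had a lower mean under artificial than under biological low R:FR. The gene msh1 (LOC100272790, chromosome 4, 55392641 to 55396408) had 225, 600 and 1037 under biological low R:FR and 177, 251 and 381 under artificial low R:FR, against 1534, 1504 and 2384 in the control. Its mean was 34.3% of the control under biological low R:FR and 14.9% under artificial low R:FR, and replicate 3 was the highest library of all 3 groups. LOC103637955 (chromosome 9, 12969748 to 12972596) had 24.0, 80.0 and 34.7 under biological low R:FR and 11.7, 53.8 and 6.12 under artificial low R:FR, against 89.5, 147 and 261 in the control. Its highest treated value came within 1.12 times of its lowest control value. LOC100303794 (chromosome 9, 105634224 to 105635117) had the steadiest control of the deep members, at 115, 125 and 117, with 16.4, 58.1 and 29.1 under biological low R:FR and 14.6, 27.9 and 13.8 under artificial low R:FR.

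Some deep members varied within the treatments by more than the fold that separated them from the control. LOC118476324 (chromosome 2, 77710277 to 77714683) had 98.6, 404 and 9.69 under biological low R:FR and 47.7, 198 and 16.8 under artificial low R:FR, against 435, 690 and 473 in the control. LOC103640072, annotated as a pseudogene on chromosome 9 (91563515 to 91564868), had 21.5, 71.6 and 3.23 under biological low R:FR and 15.6, 41.9 and 5.36 under artificial low R:FR, against 125, 123 and 74.9 in the control. In both genes replicate 2 was high and replicate 3 low under both treatments, and the control showed no such spread. LOC109943334 (chromosome 6, 4590725 to 4779318), the member nearest to the lower level limit, had 8.85, 19.7 and 2.42 under biological low R:FR and 2.92, 16.0 and 2.30 under artificial low R:FR, against 37.6, 66.4 and 24.6 in the control.

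The remaining genes of the deepest 12 were LOC100274071, LOC100276245 and LOC100275298. LOC100274071 (chromosome 1, 17868769 to 17870836) had 10.1, 23.9 and 5.65 under biological low R:FR and 12.7, 28.9 and 9.95 under artificial low R:FR, against 65.4, 80.5 and 40.7 in the control. LOC100276245 (chromosome 8, 363509 to 365082) had 8.85, 11.4 and 19.4 under biological low R:FR and 1.95, 2.99 and 16.1 under artificial low R:FR, against 48.3, 33.2 and 40.7 in the control. LOC100275298 (chromosome 1, 38493371 to 38494577) was the only one of these 3 that was also abundant, with 248, 697 and 229 under biological low R:FR and 180, 555 and 138 under artificial low R:FR, against 988, 1729 and 1218 in the control. Replicate 2 was the highest library of every group in LOC100274071 and LOC100275298, and of none in LOC100276245.

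**Figure D2:**
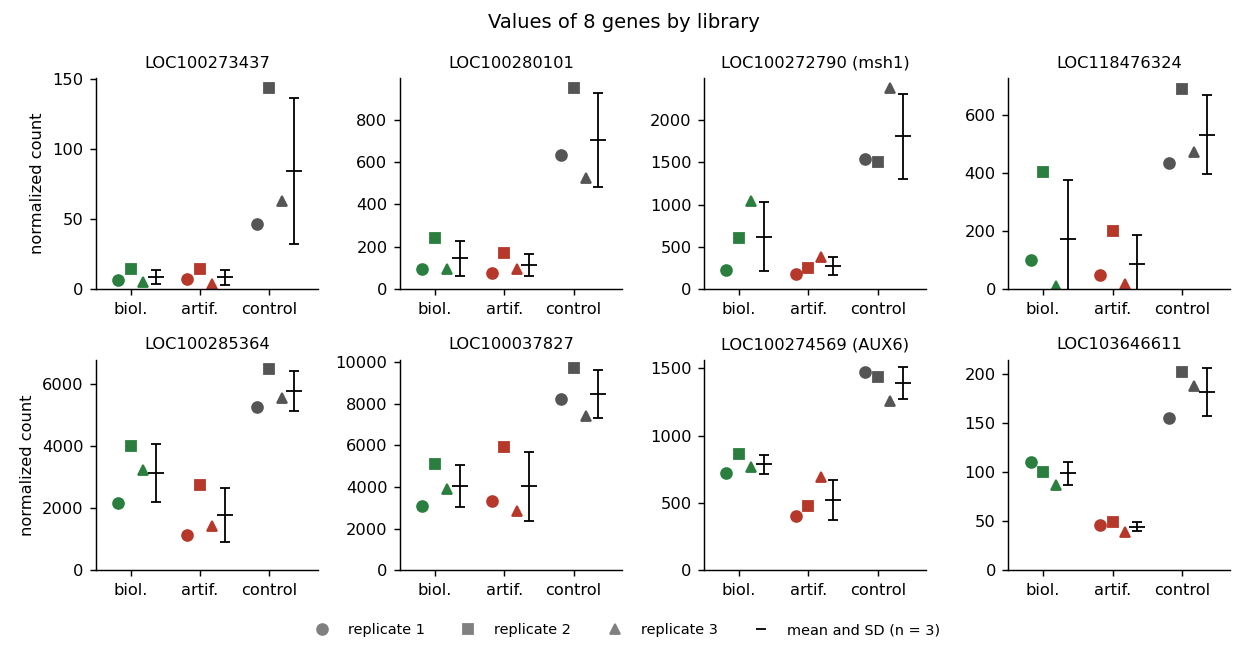
Normalized counts of 8 genes (y axis, from 0) by group (biological, artificial, control), with a symbol for each replicate and a bar for the mean and SD of 3 libraries, cut at 0 where it would go below. LOC118476324 spans 9.69 to 404 under biological low R:FR, whereas LOC103646611 spans 86.4 to 110 there and 39.0 to 48.8 under artificial low R:FR.

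The set ran over a wide range of levels. Control means lay between 31.6 and 8468 normalized counts, with a median of 137, against a median of 250 over the genes within the level limits. There were 45 members under 100 and 10 at 1000 or more. Per length, the control means ran from 0.547 to 283 TPM with a median of 4.48 TPM, against a median of 6.29 TPM over the genes within the level limits.

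The most abundant members lay well below their control levels. LOC100037827 (chromosome 5, 20406823 to 20408708) had 3085, 5104 and 3924 under biological low R:FR and 3328, 5940 and 2861 under artificial low R:FR, against 8241, 9735 and 7428 in the control. Both of its treated means were 47.7% of the control mean, and it was also the highest member per length, at 128 ± 37.3, 134 ± 46.4 and 283 ± 35.5 TPM (SD, n = 3) under biological low R:FR, under artificial low R:FR and in the control. LOC100285364 (chromosome 2, 220151825 to 220153722) had 2166, 3998 and 3224 under biological low R:FR and 1143, 2752 and 1438 under artificial low R:FR, against 5253, 6489 and 5539 in the control. Its means were 54.3% of the control under biological low R:FR and 30.9% under artificial low R:FR, and the 2 treatments overlapped.

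LOC100281852 (chromosome 10, 150354895 to 150356815) was one of the 29 members whose mean was lower under biological than under artificial low R:FR. It had 459, 893 and 405 under biological low R:FR and 616, 1062 and 461 under artificial low R:FR, against 1907, 2939 and 1727 in the control. LOC103651490 (chromosome 3, 223826926 to 223830479) had a tight control of 1259, 1379 and 1317, with 539, 929 and 338 under biological low R:FR and 335, 665 and 363 under artificial low R:FR. In both genes replicate 2 of each treatment was the highest.

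Only 5 of the 118 genes carry a name in the annotation other than a gene model, marker or clone identifier, so the set cannot be sorted by function. Besides msh1 they are AUX6, PP2C14, PAPc and one listed as permease. AUX6 (LOC100274569, chromosome 8, 113346216 to 113349828), a gene named in the auxin series, had 726, 865 and 770 under biological low R:FR and 405, 480 and 692 under artificial low R:FR, against 1475, 1439 and 1258 in the control. Its means were 56.6% of the control under biological low R:FR and 37.8% under artificial low R:FR, the control group was 1391 ± 116 (SD, n = 3), and all 3 artificial libraries lay below all 3 biological libraries. PP2C14 (LOC100192073, chromosome 1, 39067327 to 39069306), named as a type 2C protein phosphatase, a family that includes brakes on abscisic acid signalling, had 16.4, 64.4 and 82.4 under biological low R:FR and 59.4, 38.9 and 173 under artificial low R:FR, against 221, 294 and 191 in the control. It was lower in the biological mean, at 23.1% of the control, than in the artificial mean, at 38.4%, and the 2 treatments overlapped.

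PAPc (LOC100191449, chromosome 4, 61237550 to 61240709) had 104, 155 and 101 under biological low R:FR and 106, 127 and 52.8 under artificial low R:FR, against 228, 241 and 245 in the control. The gene listed as permease (LOC100273531, chromosome 1, 223952295 to 223956302) had 8.85, 35.3 and 28.3 under biological low R:FR and 12.7, 26.9 and 16.8 under artificial low R:FR, against 58.2, 37.1 and 45.5 in the control. Its highest treated value came within 1.05 times of its lowest control value. By type, 111 members are protein-coding, 4 are long non-coding RNAs and 3 are pseudogenes, 2 of these marked as transcribed. Protein-coding genes made up 94.1% of the members and 93.2% of the genes within the level limits.

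Some genes stood just inside or just outside the limits. At the fold limit, LOC103630225 was inside with log2 folds of -0.80 for biological and -1.34 for artificial low R:FR, and LOC100285160 with -0.85 and -0.81 for the same treatments. LOC100216730 was outside with -0.87 for biological and -0.80 for artificial low R:FR, its artificial value unrounded being above the limit. At the overlap limit, LOC100275320 was inside, with 92.3, 325 and 209 under biological low R:FR and 133, 269 and 169 under artificial low R:FR, against 374, 493 and 326 in the control. LOC103650977 was outside, since its lowest control value was 0.997 times its highest treated value. At the level limit, LOC109943334 was inside with a mean of 20.1 over the 9 libraries, and LOC100277126 outside with 18.4. A further 48 genes passed both fold limits and the level limits but overlapped with the control, and 891 had no overlap but a smaller fold. No gap separated the members from the genes outside the limits.

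**Figure D3:**
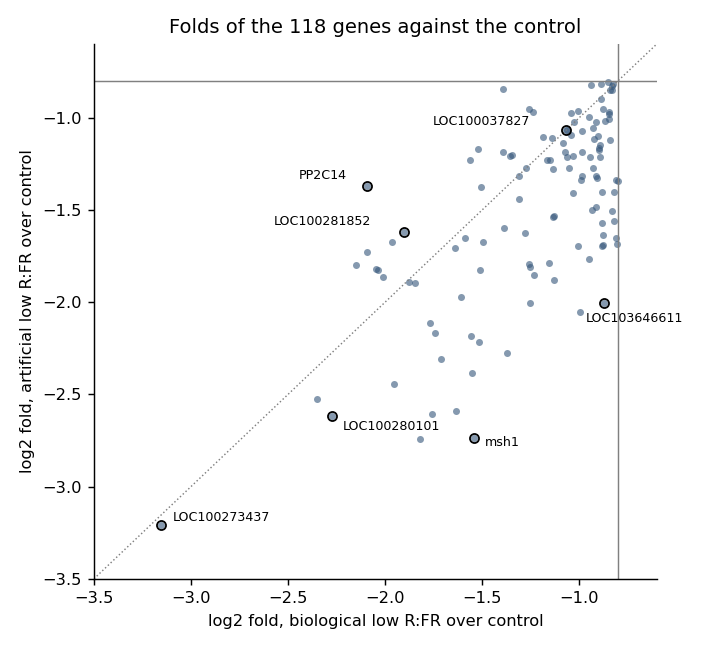
Log2 folds against the control, computed on group means plus 1, for biological (x axis) and artificial low R:FR (y axis), one point for each of the 118 genes. The solid lines mark the limit of -0.8 that chose the genes and the dotted line equal folds. LOC100273437 lies deepest at -3.15 for biological and -3.21 for artificial low R:FR, and 89 genes have a lower artificial than biological mean.

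The fit across all genes gives the background for these choices. Under artificial low R:FR against the control, 118 of 118 members passed with limma (adjusted p under 0.1, Benjamini-Hochberg), where 11.9% of 23450 genes tested passed as lower. Their median log2 difference was -1.45, against 0.01 for all genes tested. With all 9 libraries in 1 fit, 64 members passed. Under biological low R:FR against the control, 0 of 118 members passed, where 0.0% of 23600 genes tested passed as lower and 0.0466% passed in either direction. Their median log2 difference there was -1.11, against -0.05 for all genes, and 113 members had an unadjusted p under 0.05, where 4.53% of the genes tested did so as lower. Without biological replicate 3, the library that stood apart, 72 members passed, where 3.71% of genes passed as lower, and without biological replicate 2 it was 38, where 0.34% did. On recovered reads, DESeq2 called 64 members lower, where 0.539% of genes were called lower, and edgeR called 0. Since the rule used both contrasts, nothing about the members is read from these counts.

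The rule did not use the contrast between the 2 sources of low R:FR, which was fitted across all genes. It did limit every treated value and both treated means of the members, so their counts and median in this contrast are a description and not independent of the choice. Between biological and artificial low R:FR, 0 of 116 members tested passed with limma at an adjusted p under 0.1, where 0.0% of 23476 genes passed, and the smallest adjusted p among the members was 0.195. At an unadjusted p under 0.05 there were 9 members, all of them higher under biological low R:FR, where 6.15% of the genes tested were higher at that limit. The median log2 difference of the members was 0.16, against -0.04 for all genes tested, and 84 of 116 members were higher under biological low R:FR, where 44.2% of all genes tested were. It was -0.02 without biological replicate 2 and 0.45 without artificial replicate 2, each of which breaks a pair of libraries with the same number. Within numbers 1, 2 and 3 the median difference of biological minus artificial over the 118 members was 0.27, 0.21 and 0.26, and 78, 85 and 76 of them were higher under biological low R:FR. With the replicate number as a block, 0 members passed (smallest limma adjusted p = 0.196), and 19 had an unadjusted p under 0.05, 18 of them higher under biological low R:FR, where 7.11% of genes tested were higher at that limit, and 1 lower (LOC103650929). The 95% intervals given here and below come from the fit without a block and are not adjusted for the number of genes tested. Their median half-width was 0.96 on the log2 scale. That width is not the limit of the adjusted test, since LOC103646611 differed by 1.13 and did not pass. Larger differences than this width could therefore also go uncalled.

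**Figure D4:**
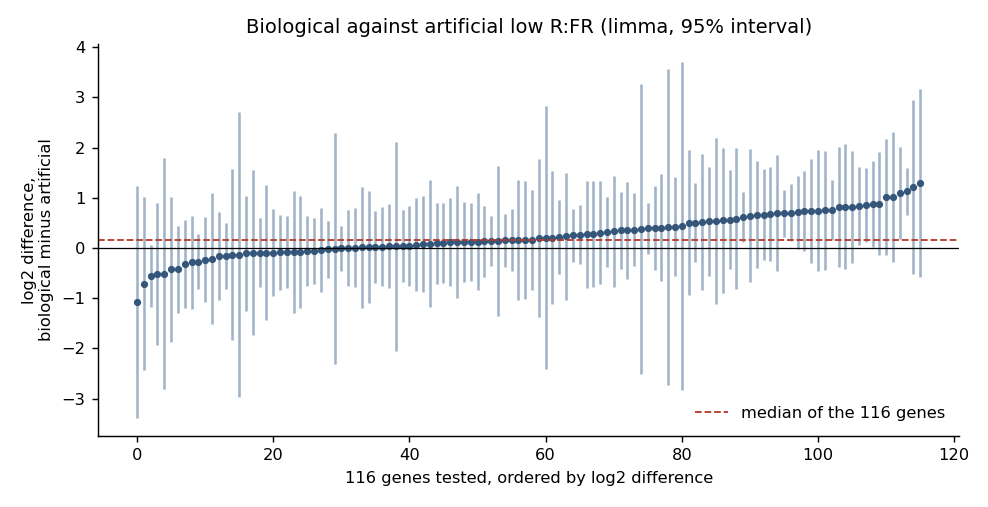
Log2 difference of biological minus artificial low R:FR (y axis) with its 95% interval from limma without a block, for the 116 genes tested, ordered by the difference (x axis). The dashed line is the median of 0.16, most intervals cross 0, and the smallest adjusted p was 0.195.

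The smallest p between the treatments was that of LOC103646611 (chromosome 2, 79364565 to 79365954). It had 110, 99.7 and 86.4 normalized counts under biological low R:FR and 45.8, 48.8 and 39.0 under artificial low R:FR, against 155, 202 and 188 in the control, so that its 3 groups did not overlap. Its log2 difference of biological minus artificial was 1.13 (standard error 0.20, 95% interval 0.66 to 1.59, limma adjusted p = 0.195). It passed with all 9 libraries in 1 fit (adjusted p = 0.0464), as the only member to do so, and with DESeq2 on recovered reads (adjusted p = 0.0538). DESeq2, which ran without artificial replicate 2, also called LOC100285364, LOC100383317 and LOC103637955 higher under biological low R:FR, at adjusted p of 0.0209, 0.0720 and 0.0937, while edgeR called 0 members. In the 9-library fit 0.988% of genes were called higher, and with DESeq2 0.763% were.

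In 8 members all 3 artificial libraries lay below all 3 biological libraries, and in 0 members the reverse held. Of the genes within the level limits, 9.05% showed the first order and 7.06% the second, so the count of 8 is close to its background and the count of 0 lies below its own. The rule limited the treated values, so neither count is independent of the choice of members. The 8 are LOC103646611, LOC100285441, LOC103645904, AUX6, LOC103639891, LOC100283255, LOC100382157 and LOC103627276. For AUX6 the log2 difference of biological minus artificial was 0.61 (standard error 0.21, 95% interval 0.12 to 1.11, limma adjusted p = 0.467). For msh1 it was 1.01 with a 95% interval of -0.29 to 2.31 in the fit without a block. With the replicate number as a block, msh1 had an unadjusted p of 0.00804 and an adjusted p of 0.285 (limma). For LOC100037827, whose treated means were nearly equal, the difference was 0.04 with a 95% interval of -0.68 to 0.76, also without a block. Even for this abundant gene the interval leaves room for a difference in either direction.

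The members often shared an order of the replicate numbers, which the rule did not name. Replicate 2 was the highest library of its group for 86 members under biological low R:FR, 84 under artificial low R:FR and 80 in the control, which is 72.9%, 71.2% and 67.8% of the 118. Of the genes within the level limits, replicate 2 was the highest for 28.7% under biological low R:FR, 34.5% under artificial low R:FR and 33.6% in the control. In 61 members (51.7%) replicate 2 was the highest in all 3 groups, against 4.79% of the genes within the level limits. In 14 members it was the highest in no group, among them msh1.

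**Figure D5:**
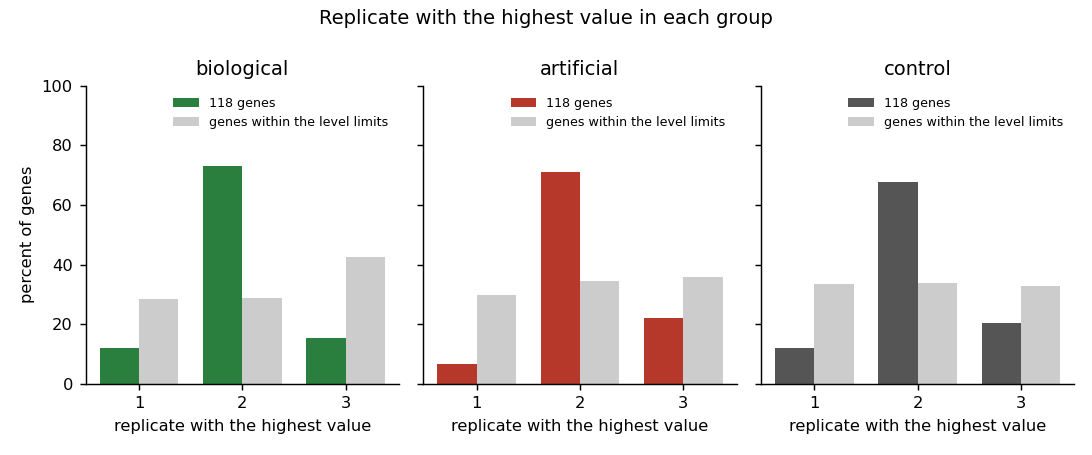
Percent of genes (y axis) whose highest value in a group was in replicate 1, 2 or 3 (x axis), for the 118 genes (coloured bars) and for the 20939 genes within the level limits (grey bars), by group. Replicate 2 takes 72.9% of the 118 genes under biological low R:FR, 71.2% under artificial low R:FR and 67.8% in the control.

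The median member was 1.61 times higher in replicate 2 than in the mean of replicates 1 and 3 under biological low R:FR, 1.65 times under artificial low R:FR and 1.22 times in the control, where the medians of the genes within the level limits were 0.992, 0.999 and 0.991 for the same groups. In 56 members (47.5%) the 3 replicate numbers stood in the same order in both treatments, against 23.8% of the genes within the level limits. In 31 members (26.3%) the order in both treatments was replicate 3 lowest, then 1, then 2, against 5.32% of those genes. Replicate 3 was the deepest library of both treatments, with 40283408 recovered reads under biological low R:FR and 36995731 under artificial low R:FR, and replicate 2 the shallowest of the control, with 22775151. Replicate 2 was of middle depth in both treatments, with 28262228 under biological and 31098648 under artificial low R:FR. The shallowest there was replicate 1, with 23372555 and 29642168 for the same treatments. The part of depth in the order of the replicate numbers was not tested. The study's methods describe a randomized complete block design in which treatments were placed anew in the growth chamber for each replication. Whether the replicate numbers of the libraries are these blocks is not stated, and the part of a shared block in the members' values was not tested.

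The distance from the control differed between numbers accordingly. Within number 1 the median log2 difference of the members from the control was -1.25 for biological and -1.63 for artificial low R:FR, within number 2 it was -0.93 for biological and -1.23 for artificial low R:FR, and within number 3 it was -1.24 for biological and -1.62 for artificial low R:FR. The highest library was at least 4 times the lowest for 14.4% of members under biological low R:FR, 13.6% under artificial low R:FR and 0.0% in the control, against 5.32%, 1.08% and 0.239% of the genes within the level limits in the same groups. The rule keeps the lowest control value above every treated value while setting no floor under single treated libraries, so neither this spread nor the size of the replicate 2 excess can be compared between treatments and control apart from the choice of members. The members' lower levels moved with this spread as well, and their part in it was not tested.

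By position the members were spread over all 10 chromosomes, from 17 each on chromosomes 1 and 2 to 7 on chromosome 10. The largest departures were on chromosome 9, with 11.0% of the members against 7.45% of the genes within the level limits, and on chromosome 2, with 14.4% against 11.9%. Members were shorter, with a median gene span including introns of 2516 bases against 3924 bases for the genes within the level limits. The quartiles of the members were 1510 and 4398 bases, against 2324 and 6441 bases for those genes.

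Within 100 kb of each other lay 5 pairs of members. The closest pair with no overlap was LOC109939524 and LOC100384645 on chromosome 5 (118283781 to 118284427 and 118290096 to 118292342, both minus strand), with 5669 bases and no other gene of the table between them. LOC109939524 had 19.0, 91.4 and 5.65 under biological low R:FR and 15.6, 112 and 7.65 under artificial low R:FR, against 136, 221 and 129 in the control. LOC100384645 had 32.9, 157 and 7.27 under biological low R:FR and 22.4, 125 and 5.36 under artificial low R:FR, against 202, 239 and 165 in the control. Both genes were highest in replicate 2 and lowest in replicate 3 of every group, and their log2 values had a Pearson r of 0.98 over the 9 libraries, which share the group differences that chose them. Whether reads of one were assigned to the other was not tested.

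The second pair overlaps. The long non-coding RNA LOC118472981 (chromosome 7, 153537776 to 153538602, minus strand) lies inside the span of LOC103633147 (153536986 to 153539449, plus strand). LOC103633147 had 193, 343 and 129 under biological low R:FR and 187, 414 and 138 under artificial low R:FR, against 489, 723 and 497 in the control. LOC118472981 had 44.2, 66.5 and 15.3 under biological low R:FR and 39.9, 82.7 and 16.8 under artificial low R:FR, against 83.3, 143 and 98.5 in the control, and its normalized counts ran in parallel with r = 0.97 over the 9 libraries. Its TPM values differed from this in biological replicate 1. They were 0.0, 1.84 and 0.327 under biological low R:FR and 0.904, 1.93 and 0.226 under artificial low R:FR, against 1.47, 3.09 and 2.61 in the control. The study's methods name featureCounts with default settings, which ignore strand, whereas the submitters' notes name HTSeq, whose default uses it. The deposited table names genes by LOC identifiers, whereas the study's methods name an Ensembl Plants annotation. The strand setting behind the table is not settled, so the reads of these 2 genes cannot be told apart here. The other 3 pairs, on chromosomes 2 and 3, lay 61165 to 85599 bases apart with r of 0.61 to 0.76.

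Genes of the pathways that low R:FR light is known to act through were looked up by symbol. Of 24 lists of gene symbols for hormones, light signalling, transport, metabolism and growth, 1 held a member, the auxin list with AUX6. Since only 5 members carry a name, the others could not match any list, and no shortage of these pathways in the set can be read from this count. The aquaporin gene tip4a, left out by name, does not enter the count either. Its log2 folds were -2.18 for artificial and -2.59 for biological low R:FR. Among the 5 light signalling genes in the table, 2 were higher under artificial low R:FR (limma, adjusted p under 0.1) and none was lower. PIF5, a member of the family of transcription factors that phytochromes restrain, had a normalized count of 1371 ± 142 under artificial low R:FR against 895 ± 62.8 in the control (log2 difference 0.61, standard error 0.10, limma adjusted p = 0.00823), and PhyB1, a phytochrome B gene, 970 ± 137 against 726 ± 52.1 (SD, n = 3 each, limma adjusted p = 0.0420). Under biological low R:FR PIF5 had 1273 ± 350 and PhyB1 965 ± 181 (SD, n = 3 each). Their log2 differences from the control there were 0.48 and 0.40 (limma adjusted p = 0.493 and 0.483). Of 37 other auxin genes tested, 4 were higher and 6 lower under artificial low R:FR, where 9.98% of all genes tested were higher and 11.9% lower, with a median log2 difference of -0.18 against 0.01 for all genes.

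AUX14, another gene of the auxin series, had the smallest adjusted p of the auxin genes that are not members. It had 122 ± 7.80 under artificial low R:FR against 327 ± 96.0 in the control (SD, n = 3 each, log2 difference -1.38, standard error 0.19, limma adjusted p = 0.00544). Under biological low R:FR it had 252 ± 49.9 (SD, n = 3) with a log2 difference of -0.36 from the control (limma adjusted p = 0.683), so it did not enter the set. Of 8 gibberellin and brassinosteroid genes, 3 were lower under artificial low R:FR, among them the gibberellin synthesis gene d3, with 205 ± 19.3 against 291 ± 46.4 in the control (SD, n = 3 each, limma adjusted p = 0.0477). The level of d3 under biological low R:FR was 396 ± 95.9 (SD, n = 3), a log2 difference of 0.42 from the control (limma adjusted p = 0.586). Of 11 cell wall expansion genes tested, xet1 was higher and xth1 lower under artificial low R:FR, with log2 differences of 0.56 (limma adjusted p = 0.0303) and -0.80 (limma adjusted p = 0.0299). Under biological low R:FR the log2 difference of xet1 was 0.89 (limma adjusted p = 0.154), with 10724 ± 1749 against 5750 ± 693 in the control, and that of xth1 was 0.46 (limma adjusted p = 0.547), with 1520 ± 356 against 1096 ± 195 (SD, n = 3 each). Under biological low R:FR 0 of the 60 genes of these 4 lists tested passed with limma, 5 had an unadjusted p under 0.05, and edgeR called 0 and DESeq2 1. Single libraries decided several of these calls. PhyB1 and xet1 were not called without artificial replicate 1 or without control replicate 2 or 3, xth1 not without control replicate 3, d3 not without control replicate 1 or 3, and PIF5 and AUX14 were called in each fit that left 1 library out. With all 9 libraries in 1 fit, PIF5, PhyB1, xet1, xth1 and d3 were not called, and AUX14 was.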

How the data were processed

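The authors deposited a table of 30184 genes holding a signal value, the read count divided by 1 DESeq2 size factor per library (here normalized count), and TPM values per library. DESeq2 1.30.1, HTSeq 0.13.5 and Bowtie2 2.4.3 appear in the processing notes of the submitters, whereas the study's methods name STAR and featureCounts. The comparison tables the authors deposited hold fold changes and p-values and were not used, and 0 columns were left unmapped. Gene positions are those of the deposited files, and 94.0% of genes matched by name have the same span in RefSeq's table of Zm-B73-REFERENCE-NAM-5.0, which also gave the names. Promoter and protein sequences were not used here.

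limma 3.58.1 (variance trend, no covariates) was run on log2(normalized count + 1) over the 6 libraries of each pair of groups, for genes at 10 or more in at least 3 of them, with Benjamini-Hochberg adjustment over all genes tested and a threshold of 0.1. The p-values measure the spread between pools. Whole reads were recovered within a tolerance of 0.01, and DESeq2 1.42.0 and edgeR 4.0.16 were run on them without artificial replicate 2, whose recovery is ambiguous (Python 3.11.15 with pandas 2.3.3, numpy 2.4.6 and matplotlib 3.10.9, R 4.3.3). Scripts were tested on simulated data.

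The members and the lists were chosen with earlier results of these data known. The text names the 12 deepest members, the 6 most abundant, genes near the limits, members with a name, and up to 3 genes per list and direction, and other genes were picked after their values were seen. Same-numbered biological and artificial libraries deviated together weakly (r = 0.124, 0.255 and 0.146), each over a limit of 0.1, and were taken as pairs. With the control, 1 of 6 such correlations was over 0.1 (biological replicate 1, r = 0.124) and the others were -0.007 to 0.095, so those numbers were not taken as pairs. Libraries with different numbers were not compared, so neither pairing nor its absence is established. Alternatives were an adjusted p under 0.05, pseudocounts of 0.5 and 5, no filter, TMM scaling, TPM values (pseudocount 0.1, filter 0.5), all 9 libraries in 1 fit, a replicate block, leaving out each library, and both count tests.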

Additional observations from a re-analysis of the deposited data

How the results depend on the processing

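Of the 118 genes, 106 also met the fold and overlap limits on TPM values, 118 did after TMM scaling or with a pseudocount of 0, and 92 to 113 did when 1 library was left out. Calls between biological and artificial low R:FR were 0 with limma in each alternative except all 9 libraries in 1 fit (1 call), 0 with any 1 library left out and with edgeR, and 4 with DESeq2. With a replicate block, which pairs these libraries by number, 0 members were called, and the block changed no member's call between the treatments. Under artificial low R:FR against the control, 64 of 118 were called with all 9 libraries in 1 fit, 116 with the replicate block, and 81 (without control replicate 2) to 115 with 1 library left out. Under biological low R:FR against the control, where 0 were called, 5 were with TPM values, 6 with all 9 libraries in 1 fit, 64 with DESeq2, 0 with the replicate block, and 0 to 72 with 1 library left out. The median difference of biological minus artificial was 0.50 with edgeR and 0.53 with DESeq2, both without artificial replicate 2, and -0.02 to 0.45 with 1 library left out. Of the genes of the 4 lists described, 17 were called under artificial low R:FR against the control, 9 at an adjusted p under 0.05, 9 on TPM values, 2 with all 9 libraries in 1 fit and 4 to 16 with 1 library left out. Under biological low R:FR 0 were called, 1 on TPM values, 1 with all 9 libraries in 1 fit, 1 with DESeq2 and 0 to 3 with 1 library left out. The causes of these differences were not tested. With 3 pools per group, differences between the treatments of up to 1.29 on the log2 scale went uncalled with limma over the 6 libraries (LOC103637955, adjusted p = 0.744). A member that was not called is therefore not shown to be equal under both treatments.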
